A study of Mus musculus with 221 samples.

Results

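Psip1, Hdgf, Men1 and Kmt2a, 4 of 78001 genes by symbol, were followed through nanopore libraries of single mouse cells that pass from endothelium to blood. They were taken by gene symbol, with all 34 of the 278369 transcript models that carry one of these symbols: 7 of Psip1, 7 of Hdgf, 14 of Men1 and 6 of Kmt2a. In short, Psip1 and Hdgf were 3.04-fold to 6.28-fold higher in hemogenic endothelium of the aorta-gonad-mesonephros (AGM) region than in either kind of yolk sac (YS) hemogenic endothelium. These folds are of counts summed over clusters and stages. For Psip1, the late YS cluster YS_b3 had a counting interval that overlapped that of the AGM cluster AGM_3. Men1 was within 1.33-fold between AGM and YS hemogenic endothelium, and Kmt2a held at most 39 counts in any cluster. The complete short models of Psip1 held 29.1% of its coding counts in HE-AGM (exact binomial interval 23.6 to 35.5), the AGM hemogenic endothelium, and the short 3′ end, with a fragment model counted too, held 45.5% of the counts that name a 3′ end.

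Each of the 221 libraries was 1 cell, and the labels placed it in 1 of 9 clusters of the transition. Hemogenic endothelium (HE) is endothelium about to give rise to blood. HE-AGM comprised the clusters AGM_3 (early, 29 cells) and AGM_4 (late, 22 cells), HE-YSA the clusters YS_m1 (early, 27) and YS_m2 (late, 30), and HE-YSP the clusters YS_b2 (early, 26) and YS_b3 (late, 27). AGM_5 (21 cells) is labelled HE-Hb, and YS_p1 (18) and YS_p2 (21) are early YS hematopoietic progenitors, LMP skewed and EMP skewed. All embryos carried Gfi1-GFP or Runx1b-RFP reporters from C57BL/6JOlaHsd lines crossed to wild-type Hsd:ICR (CD-1) females, and no cell had been given a treatment. AGM cells were taken at E9.5 and E10.5 and YS cells at E9, E9.5 and E10.5. The gates differed between the tissues: AGM HE was sorted as RUNX1+ KIT- CDH5+ and YS HE as RUNX1+ KIT+ CD31+, both CD41- and CD45-. No embryo is named for any cell, so each cluster counted as 1 sample and nothing below is tested. Intervals are 95% and cover counting error only, and the 3 nanopore runs, each with cells of every cluster, are given as a second gauge of the spread. The cDNA of the AGM cells and of nearly all YS cells was made in different projects, so tissue, gate and cDNA project cannot be told apart.

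PSIP1, also called LEDGF, is a chromatin-bound protein of the HDGF-related family. Its PWWP domain, which HDGF shares, reads methylated histone H3 lysine 36 on transcribed genes. The long form, LEDGF/p75, ends in an integrase-binding domain that HIV integrase uses to reach chromatin and that holds menin and MLL at their target genes. The short form, p52, lacks that domain and has been tied to splicing through SRSF1. Menin, the product of Men1, links PSIP1 to MLL (Kmt2a), a histone H3 lysine 4 methyltransferase needed for Hox gene expression and for definitive hematopoiesis.

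The forms of Psip1 part at 1 splice donor. Psip1 lies on chromosome 4, minus strand, bases 83455680 to 83486459 of GRCm38. The long model, Psip1-201, has 16 exons and 528 codons and runs on to the gene's end. Psip1-202 (327 codons) and Psip1-203 (331 codons) leave the last shared exon, which ends at base 83463595, for an exon of their own that ends at base 83461871. Psip1-204 is a fragment of 463 bases that ends at the same place through another acceptor. The coding sequences across this junction are printed because reads over it are what tells the forms apart. Lower case is the last 24 bases of the shared exon and capitals are the bases that follow it in each form. The next exons of Psip1-203 and Psip1-204 lie within that of Psip1-202 and are entered at other acceptors.
Psip1-201 (long; next exon chr4:83461186-83461241): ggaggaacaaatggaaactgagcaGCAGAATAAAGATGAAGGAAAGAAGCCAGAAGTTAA
Psip1-202 (short; next exon chr4:83461871-83462553): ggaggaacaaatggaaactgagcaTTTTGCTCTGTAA
Psip1-203 (short; next exon chr4:83461871-83462473): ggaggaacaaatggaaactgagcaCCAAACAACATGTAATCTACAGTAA
Psip1-204 (fragment; next exon chr4:83461871-83462174): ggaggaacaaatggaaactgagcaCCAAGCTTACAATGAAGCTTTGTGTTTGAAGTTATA
The short forms reach their stop codon 13 and 25 bases past the junction, whereas the long form codes for 616 bases more. Only the first 36 of these are printed. Psip1-205 (662 bases) is a 5′ fragment that could belong to either form, and Psip1-206 and Psip1-207 are retained introns. The files use a later annotation than the models quoted here (GENCODE M21, GRCm38). By identifier and length, 33 of the 34 transcripts matched. The one that did not is Hdgf-207.

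**Figure D1:**
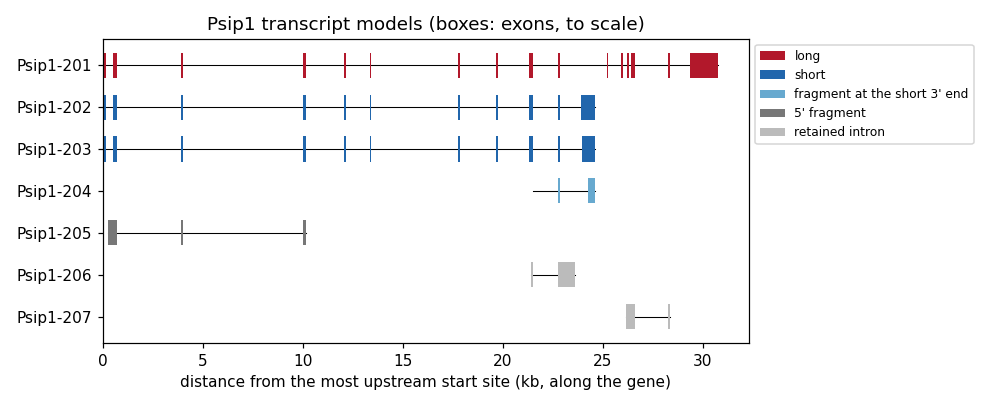
Exons of the 7 Psip1 models, to scale, against the distance in kb from the most upstream start site; colours mark the long form, the short forms, the fragments and the retained introns. Psip1-202, Psip1-203 and Psip1-204 share a 3′ end inside the gene, ahead of the last exons of Psip1-201.

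Hdgf (chromosome 3, plus strand, bases 87906321 to 87916132) has a different first base in each of its 6 matched models. Hdgf-201 and Hdgf-207, each of 2245 bases, are the full-length models, and their estimates were equal in all 114 cells that held either, so they are summed. Hdgf-202 (933 bases) begins 136 bases after the end of the first exon of Hdgf-201, inside its first intron, and shares 3 exons with it. The model of Hdgf-202 is incomplete at its 3′ end. The RefSeq promoter windows of GRCm38.p6, plus strand, from 250 bases before each start site to 30 after it, are shown because the share of counts given to the 2 models differed between the tissues. Capitals mark the GC box GGGCGG on either strand, the letters bound by SP family factors.
Hdgf-201 start (chr3:87906071-87906350): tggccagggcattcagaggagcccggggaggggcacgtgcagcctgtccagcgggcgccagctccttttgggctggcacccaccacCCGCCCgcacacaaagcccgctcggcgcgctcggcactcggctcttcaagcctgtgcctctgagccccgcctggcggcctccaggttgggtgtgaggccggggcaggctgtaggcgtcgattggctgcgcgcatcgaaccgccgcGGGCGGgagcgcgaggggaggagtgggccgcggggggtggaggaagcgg
Hdgf-202 start (chr3:87906600-87906879): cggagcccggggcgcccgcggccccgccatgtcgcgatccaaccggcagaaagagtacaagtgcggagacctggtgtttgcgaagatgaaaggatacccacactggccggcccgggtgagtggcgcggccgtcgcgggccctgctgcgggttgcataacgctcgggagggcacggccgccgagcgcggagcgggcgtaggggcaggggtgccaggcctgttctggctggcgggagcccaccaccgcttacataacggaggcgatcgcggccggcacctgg
The upstream window held 2 GC boxes and 29 CpG dinucleotides and the downstream window 0 and 35, and 34.7% of 32851 RefSeq promoter windows of this length held at least 1 GC box. The downstream window also takes in the start codon of Hdgf-201, at bases 87906628 to 87906630.

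After the authors' filter on library size, 208 cells with 18131 to 125339 estimated counts were kept. AGM cells were deeper, with a median of 59311 counts in HE-AGM against 34483.5 and 33297 in HE-YSA and HE-YSP. The count-weighted mean transcript length was also greater in HE-AGM, at 1507 bases against 1169 and 1162. All 6 endothelial markers were detected in every cluster, with summed levels from 223 CPM in YS_p2 to 2024 CPM in AGM_3. CPM are estimated counts per 1000000 of the cluster's total. C1qa, C1qb and Adgre1 of macrophages and Ttr and Alb of yolk sac endoderm summed to less than 1 estimated count each in all 9 clusters, as did Ptprc in all 4 YS HE clusters. The 5 endoderm markers together were lower in HE-AGM, at 924 CPM, than in HE-YSA (2894 CPM) and HE-YSP (2715 CPM), with Apoe, and at most 1 other of the 5, at 1 count or more in each cluster. The 5 blood progenitor markers summed to 330 CPM in HE-AGM, above HE-YSA (111 CPM) and HE-YSP (151 CPM), and the 5 megakaryocyte markers to 256, 31.0 and 50.2 CPM in the same order. Erythroid markers summed to 303 CPM in AGM_3, where 1 cell reached 9973 CPM, and to 42.7 CPM or less in the other 8 clusters. The part of these differences in the results below was not tested. In 3 YS cells the library name or cDNA project is of the AGM, and these cells held no count of Psip1, Kmt2a or Hdgf. Leaving them out was checked for the ratios of the 4 genes in HE-AGM over HE-YSA and HE-YSP and for the Psip1 short-form percents. None of these moved beyond its counting interval.

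Psip1 was high in the 3 AGM clusters and low in most YS clusters. Its level was 83.4 CPM (95% Poisson interval 68.9 to 100) in AGM_4, 70.9 (58.1 to 85.6) in AGM_5 and 63.4 (52.7 to 75.7) in AGM_3. YS_b3 came next with 42.6 CPM (29.7 to 59.3), followed by YS_p1 with 27.4 (16.2 to 43.3). Levels in YS_p2, YS_m2 and YS_m1 were 15.02, 14.6 and 14.3 CPM, and YS_b2 was lowest with 4.70 CPM (1.28 to 12.04). No neighbours in this order were apart beyond both their counting intervals and their ranges over runs. Runs 1 and 2 each placed a YS cluster among the 3 highest, YS_p1 in run 1 at 52.4 CPM and YS_b3 in run 2 at 76.4 CPM. In run 2 YS_b3 was the highest of all clusters, ahead of AGM_4 at 74.1 CPM.

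Fewer YS than AGM cells held any count of Psip1. In HE-AGM, 37 of 49 cells had a count (lowest 0, median 59.3, highest 528 CPM). In HE-YSA, 10 of 52 cells had one (0, 0 and 139 CPM), and in HE-YSP 13 of 49 (0, 0 and 254 CPM). The single-cell values overlapped, since every population had cells at 0, but the median cell was above 0 in HE-AGM alone. With each cell thinned to 18000 counts, so that depth no longer differed, a count remained in 57.1% of HE-AGM cells, 13.7% of HE-YSA cells and 22.9% of HE-YSP cells. Fewer cells that express a gene and less RNA per cell cannot be told apart where a cell holds so few counts.

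Summed over cells, Psip1 stood at 71.8 CPM in HE-AGM (239 counts), 14.4 in HE-YSA (27.5 counts) and 23.3 in HE-YSP (39 counts). Against HE-YSA the log2 ratio was 2.29 (interval 1.72 to 2.91), with 1.84, 1.92 and 2.94 in runs 1, 2 and 3. Against HE-YSP it was 1.61 (1.13 to 2.15), with 2.58, 0.86 and 1.54. Psip1 was thus at least 2-fold higher in HE-AGM than in HE-YSA in each run and than in HE-YSP in 2 of 3 runs. These ratios belong to a wide difference between the tissues: 31.8% of 11956 genes were at least 2-fold higher in HE-AGM than in HE-YSA, and 34.1% of 11848 than in HE-YSP. In every run this held for 10.9% and 13.6% of genes. The median gene was 0.31 and 0.37 higher on the log2 scale, and relative to it Psip1 was 1.98 and 1.23 higher. A ratio as high as that of Psip1 was found in 10.55% of genes against HE-YSA and 22.2% against HE-YSP. Among 2296 and 2289 genes of similar transcript length these shares were 8.41% and 20.4%. The study named Psip1 from short-read data of the same collection of cells, so its direction here is not independent evidence.

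Within the YS, Psip1 differed between the early and the late cluster of HE-YSP. YS_b2 held 4 counts in 25 cells and YS_b3 35 counts in 24 cells, a log2 ratio of 3.03 (1.70 to 5.13) with 0.13, 3.73 and 4.91 in the runs. A 2-fold higher level in YS_b3 was found for 13.4% of 7065 genes. The progenitor cluster YS_p2 was below YS_b3 by a log2 ratio of -1.46 (-2.63 to -0.49), where 12.1% of genes were at least 2-fold lower, and in run 1 this ratio was 0.65. By stage, the level in HE-YSP was 11.03 CPM at E9.0 (16 cells), 59.8 at E9.5 (13 cells) and 13.2 at E10.5 (20 cells). The interval at E9.5, 37.9 to 89.7 CPM, holds the HE-AGM level of 71.8 CPM. Cells of E9.5 were more common in YS_b3 than in YS_b2, so cluster and stage cannot be told apart. With the YS cells limited to E10.5, the log2 ratio of HE-AGM over HE-YSP was 2.38. The AGM cells, of E9.5 and E10.5, were not limited by stage. The early and late clusters of HE-YSA, YS_m1 and YS_m2, were at 14.3 and 14.6 CPM, a log2 ratio of 0.01 (-1.10 to 1.29). A single cell held 6 of the 12 counts of YS_m1, and without it that cluster stood at 7.80 CPM. Likewise 2 of the 4 counts of YS_b2 came from 1 cell, without which the level was 2.44 CPM.

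**Figure D2:**
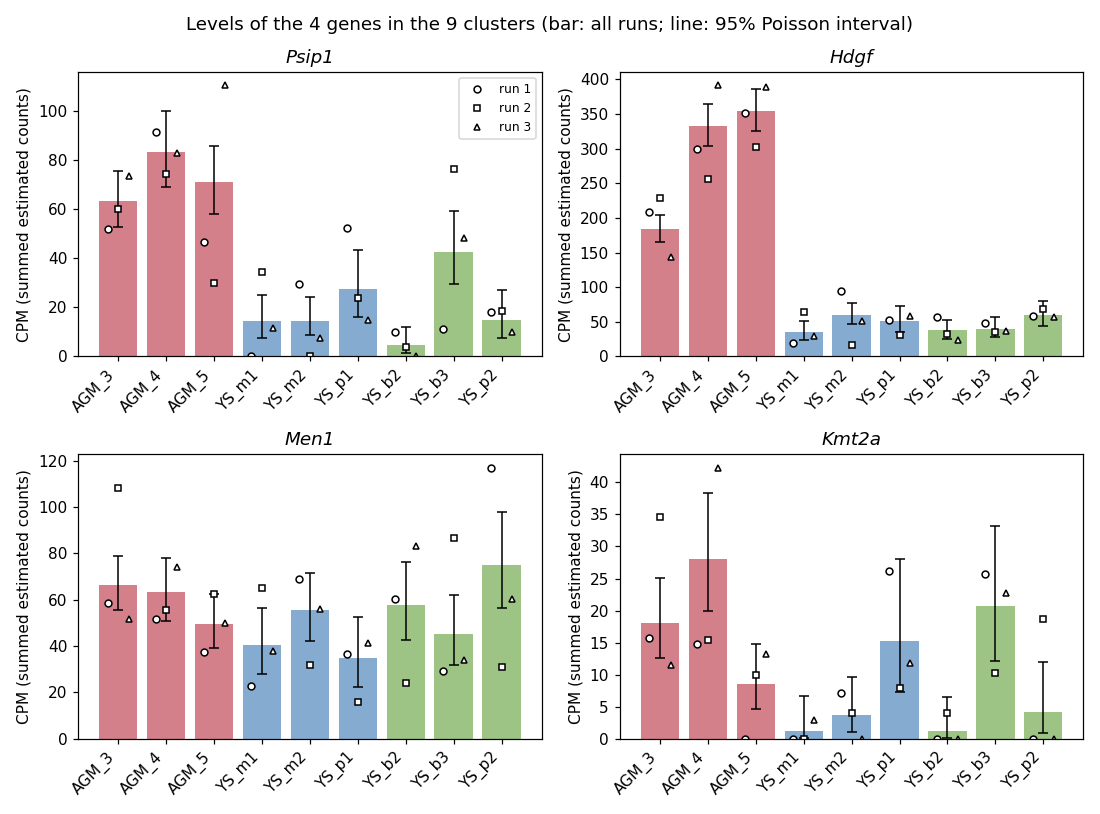
Level in CPM of Psip1, Hdgf, Men1 and Kmt2a in the 9 clusters (red AGM, blue YS_m and YS_p1, green YS_b and YS_p2); bars are all runs together, lines the 95% Poisson intervals and open symbols the 3 nanopore runs. Psip1 and Hdgf are highest in the red bars, Men1 lies between 35.0 and 75.1 CPM throughout, and Kmt2a does not pass 28.05 CPM.

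The long and the short form were both present in HE-AGM. Psip1-201 had 115 counts there (34.5 CPM) and the complete short models, Psip1-202 and Psip1-203, 69.5 counts (20.9 CPM). With the fragment Psip1-204 added, a choice made after seeing the data, the short 3′ end had 96 counts (28.8 CPM). The short 3′ end was thus 45.5% of the counts that name a 3′ end (exact binomial interval 38.6 to 52.5), with 42.7% in AGM_3 and 48.5% in AGM_4. AGM_5 was alike, at 53.0% (42.8 to 63.1). When only the complete short models, Psip1-202 and Psip1-203, were counted, over all coding models of the gene, the percent was 29.1 (23.6 to 35.5) in HE-AGM, with 31.4, 21.3 and 31.0 in the 3 runs. Of 36 HE-AGM cells with a 3′ end, 10 held the long form alone, 10 the short alone and 16 both. The median cell held 5 counts of 3′ ends.

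In the yolk sac the counts of 3′ ends were few, and the intervals of the 2 HE populations overlapped. HE-YSA had 15 long and 8 short counts, 34.8% short (16.4 to 57.3), an interval that holds the HE-AGM value. HE-YSP had 22 long and 3 short counts, 12% short (2.55 to 31.2), below the interval of HE-AGM. All 22 long counts lay in YS_b3, in 8 cells with 6 at most in any one, and YS_b3 had no short count, which allows up to 15.4%. The 3 short counts came from 2 cells of YS_b2, where no long count was found. Thus within HE-YSP the long form was found in the late and the short end in the early cluster. Of the coding counts, HE-YSA had 27.8% from the complete short models (12.6 to 51.1) and HE-YSP 5.13% (0.627 to 17.3). With fractional estimates under 1 count set aside, these became 11.1% and 0%. That step does not gauge the short share, since a short count shared out over several models falls under 1 in each. In HE-YSP, Psip1-202, Psip1-203 and Psip1-204 held 1 count each in sum, and no cell held a whole count of any of them. Estimates of Psip1-202 and Psip1-203 were equal in 42 of 44 cells that held either, so the short models were not told apart from each other.

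Taken form by form, the level in HE-AGM was higher for each. The long form had a log2 ratio of 2.09 (1.35 to 3.02) over HE-YSA and of 1.37 (0.73 to 2.12) over HE-YSP. For the short end the ratios were 2.70 (1.74 to 4.03) and 3.79 (2.42 to 6.31), the last with only 3 counts in HE-YSP. The 5′ fragment Psip1-205, which names neither form, took 28 of 239 counts in HE-AGM but 14 of 39 in HE-YSP and 10 of 18 in YS_p1. A large part of the YS counts therefore cannot be given to a form. No count of a retained intron was found in HE-AGM or HE-YSP, and HE-YSA held 3 counts of Psip1-206 and 0.5 of Psip1-207.

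**Figure D3:**
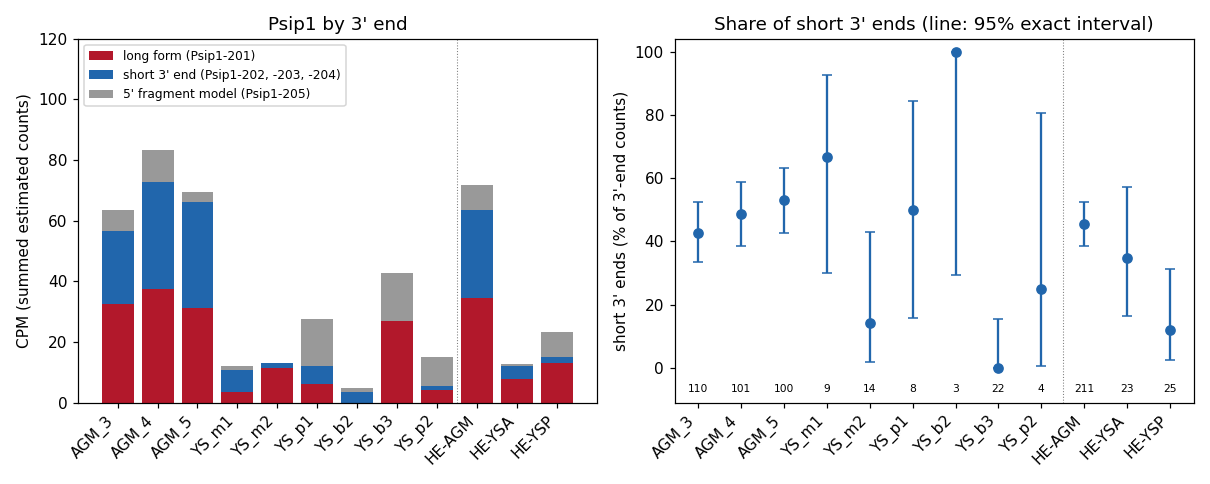
Left, CPM of Psip1 assigned to the long form, the short 3′ end and the 5′ fragment in the 9 clusters and the 3 HE populations, stacked, with retained introns left out; right, short 3′ ends in percent of 3′-end counts with exact 95% intervals, the number of such counts printed beneath. The AGM clusters lie between 42.7% and 53.0%, YS_b3 is at 0% of 22 counts, and the other YS clusters have 3 to 14 counts each.

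Hdgf, the founding member of the family to which PSIP1 belongs and a growth factor as well as a chromatin protein, was higher in every AGM cluster and run (144 CPM or more) than in any YS cluster and run (94.9 CPM or less). Its level was 355 CPM (326 to 386) in AGM_5, 333 (303 to 365) in AGM_4 and 184 (165 to 204) in AGM_3. All 6 YS clusters lay between 35.7 CPM in YS_m1 and 60.1 CPM in YS_m2. AGM_3 was apart from AGM_4 above it and from YS_m2 below it, both in the counting intervals and in the ranges over runs. The 6 YS clusters could not be ordered beyond their spread. A count was found in 48 of 49 HE-AGM cells (lowest 0, median 258, highest 562 CPM), 29 of 52 HE-YSA cells (0, 24.0 and 349 CPM) and 24 of 49 HE-YSP cells (0, 0 and 212 CPM). The cells of the populations overlapped, but the median HE-AGM cell was above every HE-YSP cell.

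Over all cells, HE-AGM had 246 CPM of Hdgf, HE-YSA 49.3 and HE-YSP 38.9. The log2 ratios were 2.31 (2.01 to 2.64) and 2.65 (2.30 to 3.05), between 1.88 and 2.60 in the runs against HE-YSA and between 2.19 and 3.00 against HE-YSP. Hdgf was therefore at least 2-fold higher in HE-AGM in every run against both. Ratios as high were found for 10.3% and 10.6% of all genes, and for 7.63% and 8.97% of genes of similar length. HE-YSA at E9.5 stood at 112 CPM (14 cells) against 30.5 CPM at E10.5 (33 cells). With the YS cells, but not the AGM cells, limited to E10.5, the log2 ratio over HE-YSA was 3.00. Every one of the 37 HE-AGM cells with a Psip1 count also held Hdgf, where all but 1 cell of the population did. Of 10 HE-YSA cells with Psip1, 6 held Hdgf, and of 13 HE-YSP cells, 6.

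The higher level lay in the full-length Hdgf model. For Hdgf-201 and Hdgf-207 together, HE-AGM had 237 CPM (220 to 254), HE-YSA 37.8 (29.6 to 47.6) and HE-YSP 28.1 (20.7 to 37.4). Hdgf-202 had 5.26 CPM (2.97 to 8.18), 8.13 (4.80 to 13.6) and 9.57 (5.47 to 15.5), and these intervals overlapped. Of all Hdgf counts, Hdgf-202 therefore formed 2.14% (1.21 to 3.30) in HE-AGM. The share was 16.5% (10.1 to 26.2) for HE-YSA and 24.6% (14.8 to 36.9) for HE-YSP. Values of the runs went from 0.781% to 3.95%, from 10.53% to 18.9% and from 16.7% to 43.3% in that order. Each of the other 4 Hdgf models took at most 2.66% of any HE population. The share was highest in the progenitor clusters, 45.6% in YS_p1 (27.2 to 62.1) and 43.2% in YS_p2 (28.3 to 59.0), intervals that overlapped that of YS_b3 (37.9%, 20.4 to 54.9). In AGM_5 it was 2.80% (1.57 to 4.57). Changes of this size were common: the fraction of at least 1 isoform differed by over 0.1 between HE-AGM and HE-YSA in 58.6% of 3351 genes with 50 counts in each, and between HE-AGM and HE-YSP in 56% of 2996. Of these genes 44.2% and 23.7% had a difference as large as that of Hdgf. Hdgf-202 is the shorter model, with 933 bases against 2245. Mean transcript length was also lower in HE-YSA (1169 bases) and HE-YSP (1162) than in HE-AGM (1507). The part of this general difference in the share of Hdgf-202 was not tested.

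**Figure D4:**
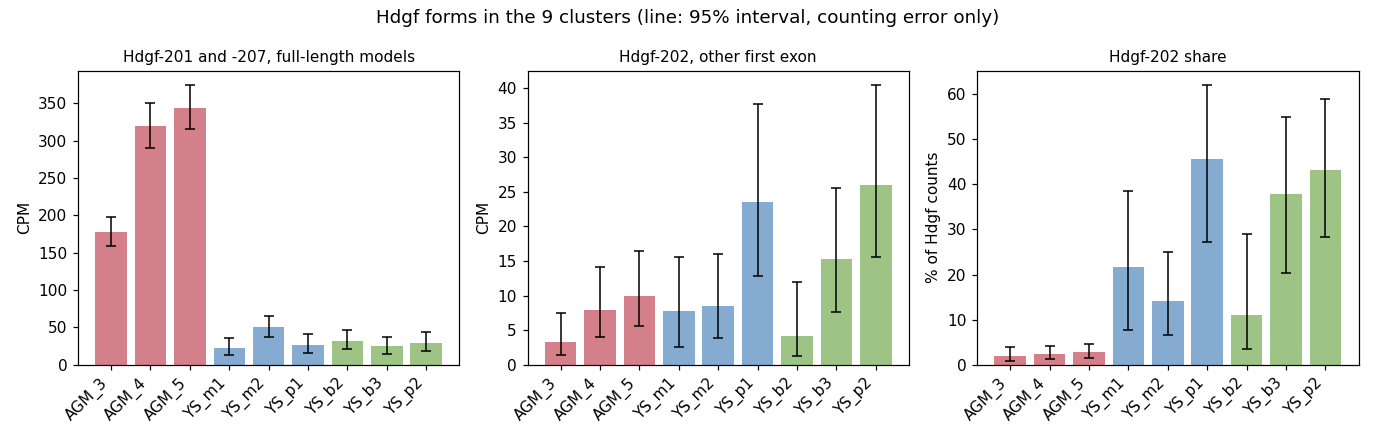
Hdgf in the 9 clusters: CPM of the full-length models, CPM of Hdgf-202 and the percent of Hdgf counts that are Hdgf-202, with 95% intervals (colours as for the levels of the 4 genes). The full-length models separate AGM from YS clusters, Hdgf-202 lies between 3.35 and 25.9 CPM, and its share is below 3% in the 3 AGM clusters and above 10% in all 6 YS clusters.

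Men1, which encodes menin, differed little between the HE populations. Its level was highest in YS_p2 (75.1 CPM, 56.6 to 97.7) and lowest in YS_p1 (35.0 CPM, 22.2 to 52.6). The counting intervals of YS_p2 and YS_p1 did not overlap, but their ranges over runs did. All neighbours in the order of 9 clusters overlapped. A count was found in 33 of 49 HE-AGM cells (lowest 0, median 46.1, highest 464 CPM), 24 of 52 HE-YSA cells (0, 0 and 224 CPM) and 23 of 49 HE-YSP cells (0, 0 and 402 CPM). In the sums, HE-AGM stood at 65.2 CPM, HE-YSA at 48.8 and HE-YSP at 51.4. The log2 ratio was 0.41 (0.06 to 0.78) over HE-YSA and 0.34 (-0.03 to 0.72) over HE-YSP or 0.10 and -0.04 relative to the median gene. With median-of-ratios scaling the second ratio turned to 0.00 (-0.0017). Menin was spread over many models that share most exons. Men1-201, Men1-203 and Men1-208 code for the same number of codons (611) and had equal estimates in all 105 cells that held them. The model with the most counts was Men1-204, also of 611 codons, which took 14.3% of the gene for HE-AGM, 20.2% for HE-YSA and 24.9% for HE-YSP. The difference of its fraction between HE-AGM and HE-YSP, -0.11, was the largest of the gene there, and 53.9% of genes had one as large. Men1-206 has 616 codons and had the same rounded percents as those 3, from 12.8% to 15.5%, and each of the other 9 models took at most 11.1%.

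Kmt2a, which encodes MLL, gave few counts. Its models of 16461 and 16470 bases are the longest of the members. Levels were 28.05 CPM (19.9 to 38.3) in AGM_4, 20.7 (12.1 to 33.2) in YS_b3, 18.1 (12.6 to 25.1) in AGM_3 and 15.2 (7.30 to 28.01) in YS_p1. AGM_5 stood at 8.61 CPM, and YS_p2, YS_m2, YS_m1 and YS_b2 at 4.10, 3.76, 1.19 and 1.18 CPM. Neighbours in this order overlapped. Only 15 of 49 HE-AGM cells (highest 184 CPM), 3 of 52 HE-YSA cells (highest 105 CPM) and 7 of 49 HE-YSP cells (highest 186 CPM) had a count, and the median cell was at 0 in each population.

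In HE-AGM, Kmt2a had 74 counts (22.2 CPM), in HE-YSA 5 (2.62 CPM) and in HE-YSP 18 (10.8 CPM). The log2 ratio was 2.95 over HE-YSA (1.80 to 4.75; 1.64 to 3.62 in the runs) and 1.02 over HE-YSP (0.29 to 1.88; 0.27 to 1.79). Among 98 and 88 genes of similar length, the median ratios were 1.47 and 1.79, and 18.4% and 69.3% of them were as high as Kmt2a. The higher Kmt2a of HE-AGM against HE-YSP was therefore below that of the median gene of its length. HE-YSP was above HE-YSA by a log2 ratio of 1.94 (0.55 to 3.82), where 9.47% of genes were at least 2-fold higher. AGM_5 was below AGM_4 by -1.67 (-2.73 to -0.77), where 15.3% of genes were at least 2-fold lower. Single cells weighed heavily: 17 of the 39 counts of AGM_4 and 8 of the 18 of HE-YSP came from 1 cell each, and without them the levels were 16.9 and 6.14 CPM. Without the cell that held 3 of 5 counts, HE-YSA stood at 1.07 CPM. Much of the signal came from Kmt2a-205, a model of 4081 bases marked for nonsense-mediated decay, with 28 counts in 4 cells of HE-AGM, 4 of the 5 counts of HE-YSA and 8 counts in 1 cell of HE-YSP. The full-length models Kmt2a-201 and Kmt2a-202 had equal estimates in all 22 cells that held them, each 21.5 counts for HE-AGM, 0.5 for HE-YSA and 2.5 for HE-YSP. Kmt2a-203 and Kmt2a-204 had 3 counts or fewer in each population. Gm48314 overlaps Kmt2a on the same strand and AC061963.1 on the other, and Snapc3 overlaps Psip1 on the other strand, so their reads may not be fully separate.

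Over the 9 clusters the 4 genes did not share 1 pattern. Pearson's r of log2(CPM + 1) was 0.87 between Psip1 and Kmt2a, 0.80 between Psip1 and Hdgf and 0.56 between Kmt2a and Hdgf. Men1 had 0.03 with Psip1, 0.01 with Kmt2a and 0.37 with Hdgf. The 9 points share libraries and depth within each tissue, so these values only describe the clusters. Cells with a count of all 4 genes numbered 9 of 49 in HE-AGM, 0 of 52 in HE-YSA and 1 of 49 in HE-YSP. Depth was not made equal for these numbers, and HE-AGM cells were deeper.

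Among 2356 protein-coding genes with a mean of at least 50 CPM over the clusters, those whose pattern was most like Psip1 were Taf1d (r = 0.94), Hspe1 (0.94), Dennd4a (0.93), Siva1 (0.92) and Spi1 (0.92). Taf1d is a subunit of the RNA polymerase I factor SL1, Hspe1 a mitochondrial chaperonin and Spi1 the myeloid transcription factor PU.1. Taf1d stood at 186, 232 and 199 CPM in AGM_3, AGM_4 and AGM_5, at 132 CPM in YS_b3 and at 59.9 CPM in YS_b2. Most like Hdgf were Ube2s, Eif3a, Rplp1, Rpl35rt and Rpl7 (r from 0.976 to 0.980), of which the last 3 are named for ribosomal proteins and Eif3a is a translation initiation factor. The closest to Kmt2a was Cnot1 (0.93), the scaffold of the CCR4-NOT deadenylase, then Ilf2, Laptm5, Taf1d and Cherp. The closest to Men1 was Dctn1 (0.88), then Mcm2, Copg1, Nxf1 and Dync1i2. Taf1d was among the 5 of both Psip1 and Kmt2a, and no gene was among the 5 of more members.

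The genes around the 4 members were taken as 8 lists of 57 genes, of which 46 had at least 20 summed counts in both comparisons. Of these, 15 (32.6%) were at least 2-fold higher in HE-AGM than in both HE-YSA and HE-YSP, beside 24.5% of all 11482 genes measured in both. None was 2-fold lower in both. Against HE-YSA alone 20 of 48 were higher and 1 lower, where 31.8% and 13.3% of genes were. Against HE-YSP 27 of 47 were higher and 2 lower, where 34.1% and 14.5% were. The median log2 ratios were 0.85 and 1.20, beside 0.31 and 0.37 over all genes. The lists were not matched to all genes by transcript length, and the share of higher genes differed with length. Among genes of similar length to Kmt2a, 64.3% were at least 2-fold higher in HE-AGM than in HE-YSA and 69.3% than in HE-YSP. The part of length in the shares of the lists was not tested.

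The other subunits of the menin-MLL complexes had a median log2 ratio near that of all genes against HE-YSP and above it against HE-YSA. Of 7 measured, 3 were at least 2-fold higher in HE-AGM than in HE-YSA and 2 than in HE-YSP, with medians of 0.89 and 0.37. Of all genes, 31.8% and 34.1% were higher, with medians of 0.31 and 0.37. Kmt2b, the MLL2 enzyme that menin also binds, stood at 48.4 CPM in HE-AGM against 20.5 in the YSA and 17.3 in the YSP population (log2 ratios 1.23 and 1.46). Rbbp5, a core subunit that supports methylation, stood at 101, 44.1 and 42.5 CPM (1.19 and 1.24). Tasp1, the protease that cleaves MLL, had too few counts to be measured.

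Other COMPASS enzymes, which methylate the same lysine without menin, included larger differences. Setd1b stood at 116, 33.6 and 12.6 CPM in HE-AGM, HE-YSA and HE-YSP (1.78 and 3.18). Kmt2d, the enzyme of enhancers, stood at 56.5, 19.4 and 5.98 CPM (1.52 and 3.17), and Wdr82, which guides the SETD1 enzymes to initiating polymerase, at 75.4, 23.6 and 19.7 CPM (1.66 and 1.91). In this list 4 of 9 genes were higher than in HE-YSA. Against HE-YSP 5 of 10 were higher and 1 lower. The medians were 0.96 and 0.76. Of all genes, 31.8% were higher than in HE-YSA, and 34.1% were higher and 14.5% lower than in HE-YSP. Paxip1, 1 of the 5, passed the count limit through HE-AGM alone, with 29 counts there and 0 in HE-YSP.

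Of the enzymes that write the mark read by PWWP domains, Setd2, the main trimethylase, stood at 54.7, 24.1 and 13.8 CPM in HE-AGM, HE-YSA and HE-YSP (1.17 and 1.96). Nsd1 stood at 53.2, 22.6 and 20.3 CPM (1.22 and 1.37). In each comparison 3 of 4 measured genes were higher, with medians of 1.19 and 1.32. Of all genes, 31.8% were higher in HE-AGM than in HE-YSA and 34.1% than in HE-YSP. Beside these shares, other partners of the integrase-binding domain held 2 of 5 higher genes in each comparison, with medians of 0.99 and 0.71. The 1 higher in both was Iws1, an elongation factor, at 42.1, 11.3 and 7.18 CPM (1.87 and 2.50). Of the HDGF-related family only Hdgfl2 had enough counts, at 73.0, 38.8 and 51.4 CPM (0.90 and 0.50).

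The elongation and DOT1L partners of MLL held 3 higher genes of 10 against HE-YSA, and 5 higher and 1 lower of 9 against HE-YSP. The medians were 0.52 and 1.02. Of all genes, 31.8% were higher than in HE-YSA, and 34.1% were higher and 14.5% lower than in HE-YSP. Mllt1, the acyl-lysine reader ENL, stood at 36.6, 8.40 and 4.79 CPM (2.09 and 2.86), and Mllt6 at 15.02, 5.25 and 7.18 CPM (1.46 and 1.02). The SR splicing proteins were 2 of 3 higher than in HE-YSA and 3 of 3 than in HE-YSP, beside the same 31.8% and 34.1% of all genes. Srsf2 stood at 587, 215 and 230 CPM (1.45 and 1.35) and Srsf1, the partner of the short PSIP1 form, at 288, 120 and 127 CPM (1.26 and 1.18). The study chose the SR proteins on cDNA of the same collection, so their direction is not independent evidence.

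Most measured target genes of menin and MLL were lower in HE-YSP than in HE-AGM. Against HE-YSA, 3 of 9 measured genes were at least 2-fold higher in HE-AGM and 1 was lower, with a median of 0.52. Against HE-YSP 7 of 8 were higher, with a median of 3.71. Of all genes, 31.8% and 34.1% were higher in these comparisons. Hoxa5, Hoxa7, Hoxa9, Pbx3, Cdk6 and Cdkn1b reached 20 summed counts through HE-AGM, with 1 to 9 counts each in HE-YSP. Below that limit, Hoxa10 had 10 counts in HE-AGM and 0 in HE-YSP, and Cdkn2c 0 and 7. The 7 of 8 and the median of 3.71 against HE-YSP are therefore shaped by the limit itself. Cdk6, a kinase of the G1 phase, stood at 7.06, 1.05 and 2.39 CPM in HE-AGM, HE-YSA and HE-YSP (2.46 and 1.42). It rested on 2 counts in HE-YSA, with an interval of 0.77 to 5.91. Cdkn1b, the cell cycle inhibitor p27, stood at 25.5, 8.40 and 1.20 CPM (1.57 and 4.10, the last from 2 counts in HE-YSP with an interval of 2.52 to 7.48). Hoxa5 stood at 14.1, 4.72 and 0.598 CPM (1.52 and 3.99, the last from 1 count, 2.01 to 9.89).

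Hoxa7, Hoxa9 and Mecom, chosen here after their values were seen, differed by less than 2-fold between HE-AGM and HE-YSA and were low in HE-YSP. The log2 ratio of HE-AGM over HE-YSA was -0.15 for Hoxa7 (-0.58 to 0.29), -0.05 for Hoxa9 (-0.35 to 0.25) and 0.52 for Mecom (0.29 to 0.76). Hoxa9, a regulator of hematopoietic stem and progenitor cells, stood at 77.5, 80.3 and 3.59 CPM, and Hoxa7 at 35.4, 39.4 and 0.598 CPM. Mecom, which encodes the stem cell factor EVI1, stood at 158, 110 and 14.4 CPM. Hoxa10 was the gene lower in HE-AGM than in HE-YSA, at 3.00 against 17.3 CPM. Ccnt1, the cyclin of the elongation factor P-TEFb, also chosen after its values were seen, was the elongation gene lower than in HE-YSP, at 24.6 against 52.6 CPM, and Kdm6a the COMPASS gene, at 3.60 against 7.48 CPM. The 4 members did not follow this split: the log2 ratio of HE-YSP over HE-YSA was 0.69 for Psip1 (-0.07 to 1.42), 1.94 for Kmt2a, 0.08 for Men1 (-0.36 to 0.51) and -0.34 for Hdgf (-0.82 to 0.13).

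**Figure D5:**
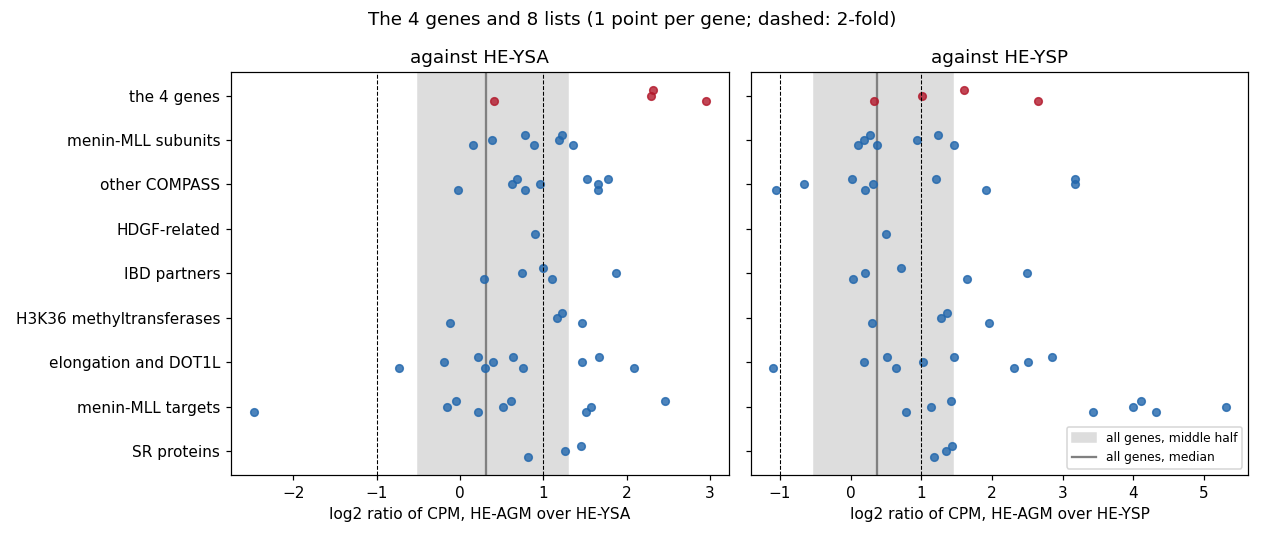
Log2 ratio of CPM of HE-AGM over HE-YSA (left) and over HE-YSP (right) for the 4 genes (red) and for the measured genes of the 8 lists (blue, 1 point per gene; Paxip1, at 0 in HE-YSP, is left out on the right); the grey band holds the middle 50% of all genes and the line their median, 0.31 and 0.37. Psip1, Hdgf and Kmt2a lie to the right of the band against HE-YSA, and 5 of the 8 measured target genes lie to the right of the band against HE-YSP, up to 5.31. Of those 5, Hoxa5, Hoxa7, Hoxa9 and Cdkn1b passed the count limit through HE-AGM, with 1 to 6 counts each in HE-YSP. The value of 5.31 (Hoxa7) rests on 1 count there.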

How the data were processed

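Long-read libraries of 221 single cells were analysed. The authors basecalled the reads, removed adapters and chimeras, aligned the reads to GENCODE release 37 transcripts with Minimap2 2.26, keeping up to 10 alignments per read, and quantified transcripts with NanoCount. Per the labels, the files hold the authors' estimated counts per transcript without normalization; 45.7% of the values above 0 were whole (within 1e-06). The authors' TPM, also deposited, scale each cell's estimates to 1000000 with no length correction, and served for 1 alternative. Reads carry no molecular identifiers. The authors' library filter (median minus 1 scaled MAD of the totals, 17595 counts) kept 208 cells; the fit with DESeq2 in the study is not part of these files.

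Counts were summed by gene and cluster. CPM are relative to the cluster's total. Log2 ratios had 0.5 counts added to each sum and exact conditional binomial intervals on rounded counts. A gene was called at 2-fold with at least 20 summed counts over both groups. Isoform fractions needed 50 counts in each population. Similar length means a count-weighted mean within 20%. A gene of a list was named if at least 2-fold different in the same direction against both YS HE populations, up to 4 per list. The 4 genes and the 8 lists were chosen with earlier results of these data known. Per the study, the nanopore cells are a subset of its short-read cells, the data on which it named Psip1. Ratios and intervals were tested on simulated counts drawn independently, as the intervals assume. That check does not cover counts that gather in single cells. Scripts ran in R 4.3.3 with edgeR 4.0.16 (TMM alone) and Python 3.11.15 with scipy 1.17.1, numpy 2.4.6, pandas 2.3.3 and matplotlib 3.10.9. All columns were mapped to samples.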

Additional observations from a re-analysis of the deposited data

How the results depend on the processing

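No paired analysis was possible because the labels name no embryo and the results come from no test. The alternatives for the ratios of Psip1 and Hdgf kept their direction, from 0.86 to 2.58 for Psip1 over HE-YSP, from 1.84 to 2.94 for Psip1 over HE-YSA, from 1.88 to 3.00 for Hdgf over HE-YSA and from 2.19 to 3.00 for Hdgf over HE-YSP, each on the log2 scale. Values left the counting interval in run 1 alone (Psip1 over HE-YSP 2.58, Hdgf 1.88 over HE-YSA and 2.19 over HE-YSP), run 2 alone (Psip1 over HE-YSP 0.86), run 3 alone (Psip1 over HE-YSA 2.94) and with YS cells of E10.5 only (Psip1 over HE-YSP 2.38, Hdgf over HE-YSA 3.00). For the short-form percent, they were 21.3 for HE-AGM in run 2 alone, 11.1 for HE-YSA with estimates of at least 1 count only, and for HE-YSP 33.3 in run 1 alone and 0 in run 2 alone, in run 3 alone, without run 1, with E10.5 cells only and with estimates of at least 1 count only. The setting of at least 1 count drops short counts shared out over several models, so its values do not gauge the short share. Counting the fragment model as short, in percent of 3′ ends, was chosen after seeing the data and gave 45.5 for HE-AGM, 34.8 for HE-YSA and 12 for HE-YSP. Leaving out each cell in turn was also added later. It was done for the ratios of the 4 genes in HE-AGM over HE-YSA and HE-YSP and for the Psip1 short-form percents. None of these left its interval, and the widest range of a ratio was that of Kmt2a over HE-YSA, from 2.62 to 4.07. Other ratios and shares were not rechecked this way. The cause of these differences was not tested. Psip1 had 2 rather than 3 AGM clusters among its highest 3 in run 1 alone, in run 2 alone and without run 3. With TMM factors and median-of-ratios factors the median gene was at 0.22 and 0.04 over HE-YSA and at 0.28 and 0.03 over HE-YSP. Under the latter, 2-fold calls against HE-YSA split into 25.5% of genes higher and 18.8% lower, and those against HE-YSP into 27% and 21.7%. Thinned cells gave 3.19 for Kmt2a over HE-YSP, on few counts. Genes named as pseudogenes of a member were not in the table, so adding them gave no value. Depth limits the YS percents, since 24 and 39 coding Psip1 counts stand behind them.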
